A study of Danio rerio with 16 samples.

Results

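LSB is a zebrafish line that descends from wild-caught fish and was bred for low stationary behavior, that is, for fish that spent little time motionless. Its whole-brain transcriptome was set against those of 3 other strains: HSB, bred from wild-caught fish for high stationary behavior, and AB and Scientific Hatcheries (SH), which were purchased. All fish were 17 weeks old, and some of the LSB and HSB fish had been tested for behavior before sampling. Each library was made from the pooled brain RNA of 10 fish, with 2 female and 2 male pools per strain. LSB thus had 4 libraries of 16, and the other strains had 12. The deposited values are CPM, reads on a gene scaled to 1000000 reads in each library. A gene was called LSB-specific where all 4 LSB libraries lay above, or all 4 lay below, the range of the other 12. This rule kept 848 of 15304 genes (5.54% of the table). Of these, 313 were higher in LSB (2.05%) and 535 were lower (3.5%).

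Fish that stop moving in unfamiliar surroundings are commonly read as anxious, and lines selected for how long they stay still are used to search the brain for heritable correlates of coping style. Strains bred apart differ in expression for many reasons, since selection, founder fish and drift all act on the same genomes. LSB is a single line, so its differences from HSB, AB and SH cannot be told apart from those of any line with its own history. The error terms below measure the spread between pools within strains, not between independently bred lines. For each gene they rest on a single estimate of that spread shared by all strains. The LSB libraries were less alike than those of the other strains, so these terms can understate the spread within LSB. Whole brains were measured, so fewer cells of a type and less RNA per cell cannot be told apart.

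Read totals were not read from a file but worked back from the steps between CPM values, and are estimates. They came to 23340258 to 31625671 reads on genes in the LSB libraries and 18398865 to 35737825 in the 12 others, so that a single read would be worth 0.0280 to 0.0544 CPM. Brain markers were present throughout: snap25b, a gene of neuronal exocytosis, was at 819 to 924 CPM in LSB, and myelin basic protein a (mbpa) at 32380 to 41767 CPM. The LSB libraries were less alike than those of the other strains. The median absolute log2 difference of a library from the mean of its strain's other 3 was 0.151 for LSB female pool 2, 0.123 for male pool 2, 0.102 for male pool 1 and 0.0835 for female pool 1, against 0.0689 to 0.0899 in HSB, AB and SH. The paper left 1 LSB female pool, not numbered there, out of its network analysis as an outlier. LSB female pool 2 was the most extreme library in several, not all, of the gene lists below. Its summed CPM was the highest for cytosolic ribosomal proteins (34650) and oxidative phosphorylation (16572). It was the lowest for voltage-gated ion channels (4847) and glutamate receptors (3304). The sex labels of the LSB pools numbered 2 were in doubt. The thyroid hormone activating enzyme dio2 stood at 50.4 and 128 CPM in LSB female pools 1 and 2, and at 117 and 40.1 CPM in male pools 1 and 2, whereas males were higher in the other strains. The growth factor igf1 gave the same order, with 6.90 and 11.03 CPM in the LSB female pools against 11.8 and 6.03 CPM in the male pools. Females and males were therefore pooled in every comparison. The 313 genes above and 535 below the other strains would have been 744 and 1116 without both of these pools, a less strict rule because fewer libraries have to agree.

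Set against the 3 others by the same rule, HSB had 257 genes above (1.68%) and 251 below (1.64%), AB 433 (2.83%) and 382 (2.5%), and SH 1885 (12.3%) and 627 (4.1%). LSB was thus the strain with the second largest number of genes below the range of the rest, after SH. The excess of lower over higher genes in LSB depended on scale. The median difference over all genes was -0.04 on the log2 scale, and after the libraries were rescaled by their median ratios it was -0.004, with 395 genes above and 433 below. Of the original genes, 296 of 313 and 406 of 535 kept their call.

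**Figure D1:**
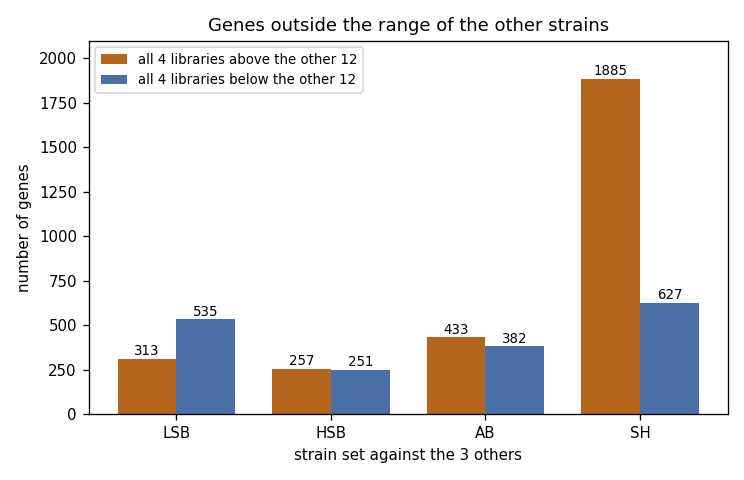
Number of genes, of 15304, for which all 4 libraries of a strain lay above (orange) or below (blue) all 12 libraries of the other strains. LSB had 313 and 535 such genes, and SH had the most in both directions, 1885 and 627.

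Most LSB-specific differences were small. Differences are given as the mean log2(CPM + 0.5) of LSB minus the mean of the 3 other strain means, with its standard error (SE) from limma, which fits linear models gene by gene. The median size was 0.41 in both directions, with quartiles of 0.26 and 0.66 among higher genes and 0.30 and 0.61 among lower genes. Over all 15304 genes the median size was 0.13. A difference under 0.5 was found for 193 of 313 higher genes (61.7%) and 344 of 535 lower genes (64.3%). At least a 2-fold change, a log2 difference of 1 or more, was found for 40 higher and 37 lower genes. A difference of at least 2 was found for 15 higher and 4 lower genes, and of at least 3 for 6 and 1. Every gene of the table exceeded 1 CPM in at least 4 libraries. A gene low in all 12 others could thus enter through the 4 LSB libraries alone. The numbers of large higher and lower differences depend on this filter and cannot be compared directly. The large differences lay mostly in genes with few reads, since 27 of the 40 and 26 of the 37 averaged under 5 CPM over the 16 libraries. Provisional names were common among them: 20 of the 40 (50%) and 15 of the 37 (40.5%) had only a clone-based or similar name, as did 15.2% of all genes.

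HSB was the strain nearest to LSB for 124 of 313 higher genes (39.6%) and 264 of 535 lower genes (49.3%). AB was nearest for 119 and 180 genes, and SH for 70 and 91. The nearest strain was not counted over all genes. In the limma test described below, all genes also gave the fewest calls against HSB, with 1411 higher and 1776 lower. Against AB there were 1579 and 2185 calls, and against SH 2437 and 4907. The order is thus not shown to be particular to the LSB-specific genes. Among the higher genes, the median difference was 0.38 to HSB, 0.37 to AB and 0.44 to SH. Among the lower genes it was -0.36 to HSB, -0.39 to AB and -0.47 to SH. The LSB difference was more than 3 times the range of the 3 other strain means for 80 higher and 147 lower genes, and smaller than that range for 27 and 43. Within LSB, the library that came closest to the other strains was most often male pool 2, for 123 higher and 203 lower genes. Without it, 571 and 967 genes would have been called.

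At the border of the rule, the just included genes were bckdk, a kinase of branched-chain amino acid breakdown, at 163 to 185 CPM in LSB against 132 to 163 in the others, and rps26, a ribosomal protein, at 141 to 189 against 102 to 141. On the lower side they were METTL15, at 5.13 to 5.597 against 5.598 to 8.82 CPM, and BDP1 (2 of 2), named DAB2 in the reference table, at 23.2 to 30.1 against 30.1 to 37.1 CPM. The just excluded genes were pgm3 at 17.8 to 19.8 against 16.2 to 17.8 CPM, ISCA2 at 74.4 to 92.5 against 62.1 to 74.4 and plxna1 at 11.7 to 17.6 against 17.6 to 22.0. The gaps at the border were thus no larger than the last digit shown.

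The gene with the largest difference was zgc:195170, for which the files name no function. It stood at 20.6 and 15.1 CPM in LSB female pools 1 and 2 and at 19.8 and 18.6 CPM in male pools 1 and 2, against a range of 0 to 7.35 CPM (median 0.174) in the 12 others. The mean was 18.5 CPM in LSB, 3.03 in HSB, 0.230 in AB and 0.056 in SH, a difference of 4.24 ± 0.38. Reads on this gene were thus nearly absent in AB and SH, and some were present in HSB. PLA2G4C (3 of 5) encodes a cytosolic phospholipase A2, an enzyme that releases fatty acids from membrane lipids. It was at 31.1, 50.02, 18.6 and 26.9 CPM in LSB (female pools 1 and 2, then male pools 1 and 2, as in the lists that follow) and at 0.504 to 4.74 CPM in the others (3.67 ± 0.18). LSB female pool 2 was the highest library and male pool 1 the lowest, and the other strains lay far below both.

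Membrane and signalling proteins followed. The gene si:dkeyp-41f9.3, named cspg4bb in the reference table, belongs with the CSPG4 proteoglycans, which in mammals mark pericytes and oligodendrocyte precursors. It measured 9.47, 8.36, 11.2 and 7.79 CPM in LSB, against 0.105 to 0.489 CPM in the others (3.59 ± 0.12). Its mean in LSB was 30.3-fold that of the other strains. The adhesion G protein-coupled receptor gene si:ch211-119b12.8 (adgrg11) measured 4.58, 11.2, 6.80 and 5.68 CPM in LSB, against 0.0935 to 0.378 CPM in the others (3.25 ± 0.17), a 27.2-fold ratio of means. Both genes exceeded 1 CPM only in the 4 LSB libraries, so their place in the table and these ratios rest on LSB alone. Neither gene differed much among HSB, AB and SH, whose means ran between 0.256 and 0.381 CPM for cspg4bb and between 0.234 and 0.309 CPM for adgrg11. In slc19a3a, whose human counterpart carries thiamine into cells, LSB had 6.64, 8.47, 8.601 and 7.93 CPM, against 0.770 to 1.66 CPM (2.32 ± 0.12).

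The gene listed as tceb3, a transcription elongation factor, carries an identifier that the reference table gives to CALCOCO1, a coactivator. It was the most even of this group within LSB, at 10.6, 11.9, 10.8 and 10.8 CPM, against 0.226 to 0.980 CPM elsewhere (3.28 ± 0.15). A further gene without a functional name, si:ch73-256j6.3, measured 5.36, 4.34, 3.83 and 3.84 CPM in LSB. In the others it ranged up to 0.795 CPM with a median of 0.0344, the value of about 1 read (2.91 ± 0.19). In AB it averaged 0.00943 CPM and in SH 0.0533 CPM, against 0.493 CPM in HSB. Like tceb3, it exceeded 1 CPM only in the 4 LSB libraries.

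**Figure D2:**
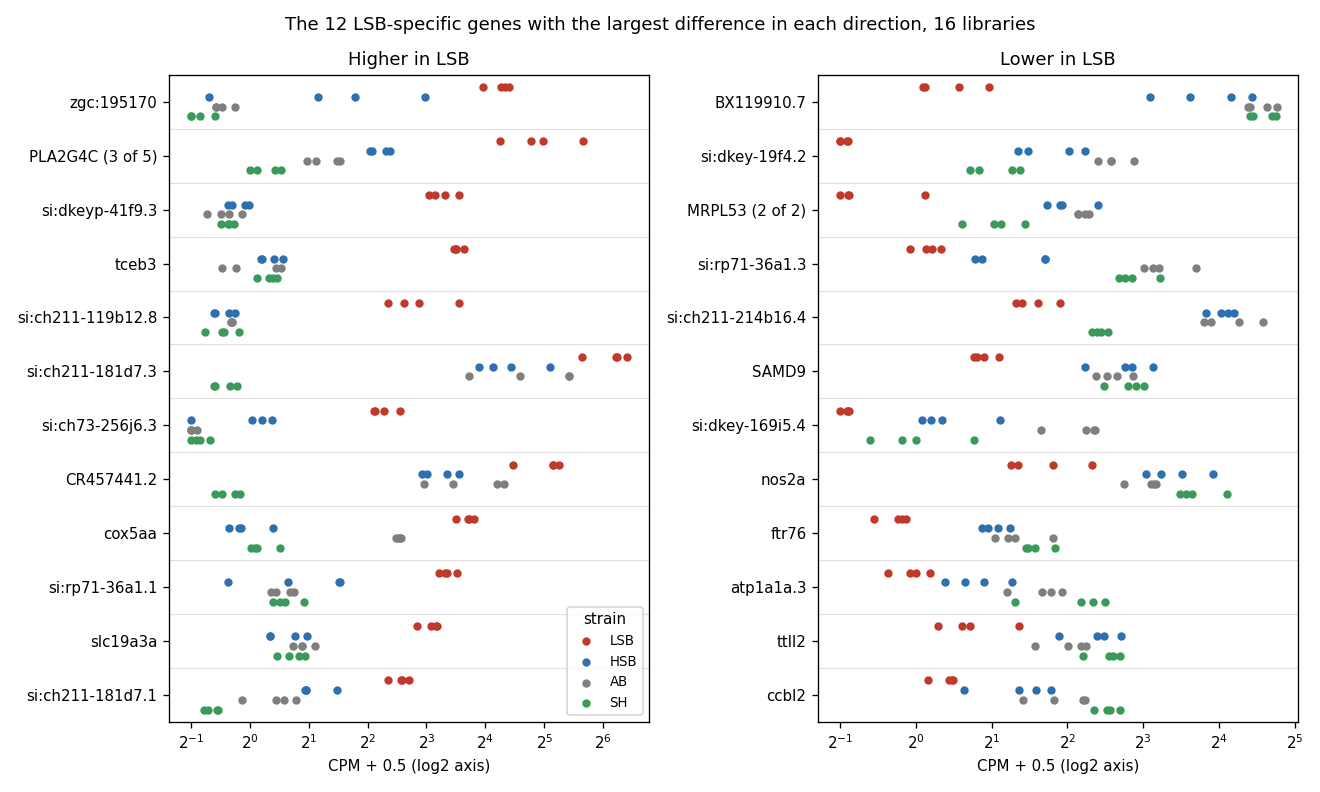
CPM + 0.5 on a log2 axis for the 12 LSB-specific genes with the largest difference in each direction, 1 point per library (LSB red, HSB blue, AB grey, SH green). In each gene the 4 LSB points lie to 1 side of the 12 others, and the strains nearest to LSB differ between genes. The cox5aa shown is the copy that was higher in LSB.

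On the lower side, the largest difference was that of BX119910.7, listed as an uncharacterized protein. It was at 0.985, 1.45, 0.569 and 0.589 CPM in LSB, against 8.04 to 26.6 CPM in the others (median 21.0), a difference of -3.88 ± 0.19. Its mean in the other strains was 22.7-fold that in LSB. The gene si:dkey-19f4.2 had at most 1 read in any LSB library, with 0, 0.0371, 0 and 0.0346 CPM, against 1.15 to 6.87 CPM in the others. Similarly, si:dkey-169i5.4 had 0.0428, 0.0371, 0.0316 and 0 CPM in LSB, against 0.156 to 4.64 CPM. For both, expression was not detectable above 1 read at this depth in LSB, and the fitted differences (-2.76 ± 0.15 and -1.78 ± 0.21) depend on the constant added before taking logarithms. AB carried the highest means of both genes, 5.65 and 4.03 CPM. Another gene without a functional name, si:ch211-214b16.4, averaged 2.50 CPM in LSB, 16.1 in HSB, 17.5 in AB and 4.88 in SH (-1.97 ± 0.12).

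Named enzymes and defence genes made up much of the rest. SAMD9, which acts in antiviral defence in mammals, was at 1.20, 1.37, 1.64 and 1.247 CPM in LSB, against 4.21 to 8.26 CPM (-1.82 ± 0.13). The inducible nitric oxide synthase nos2a was at 1.89, 4.53, 2.06 and 3.01 CPM, against 6.24 to 16.7 CPM (-1.70 ± 0.18). The finTRIM gene ftr76, from a family of TRIM proteins expanded in fish, was at 0.186 to 0.416 CPM in LSB, against 1.33 to 3.08 CPM (-1.60 ± 0.13). No single strain carried these differences. To HSB, AB and SH they were -1.85, -1.71 and -1.91 for SAMD9, -1.74, -1.36 and -2.01 for nos2a, and -1.31, -1.62 and -1.86 for ftr76. The sodium pump subunit atp1a1a.3 averaged 0.468 CPM in LSB, 1.29 in HSB, 2.68 in AB and 3.93 in SH (-1.57 ± 0.20). The tubulin-modifying enzyme gene ttll2 averaged 1.24 ± 0.584 CPM in LSB (SD, n = 4), against 4.53 ± 1.13 CPM in the others (SD, n = 12; -1.55 ± 0.17). Among muscle genes, the troponins tnni1b and tnnt2d differed in opposite directions. tnni1b was at 8.61, 7.39, 7.40 and 7.45 CPM in LSB against 0.845 to 5.67 CPM in the others (1.27 ± 0.10). tnnt2d was at 0.485 to 0.857 CPM in LSB against 1.39 to 3.61 CPM (-1.24 ± 0.17).

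Some LSB-specific genes lay beside each other. Of the 12589 genes that could be placed in the order of the reference, a newer assembly than the files' Zv9, 677 were LSB-specific (5.38%). A direct neighbour that was also LSB-specific was found for 117 of these 677 (17.3%), against 9.96% of the other genes, a difference that was not tested. The 62 neighbouring pairs ran in the same direction 32 times and in opposite directions 30 times. A run of 3 genes was higher in LSB: si:ch211-181d7.1, CR457441.2 and si:ch211-181d7.3, the last named nlrc11, of the NLR family of innate immune sensors. In LSB nlrc11 measured 84.5, 49.4, 73.5 and 74.4 CPM, against means of 21.5 in HSB, 30.2 in AB and 0.245 in SH (3.21 ± 0.25). CR457441.2 followed it with 34.8, 21.6, 34.8 and 37.5 CPM in LSB and means of 8.90, 13.7 and 0.282 CPM in HSB, AB and SH (2.81 ± 0.20). si:ch211-181d7.1 averaged 5.37 CPM in LSB, 1.64 in HSB, 0.877 in AB and 0.141 in SH (2.26 ± 0.14). All 3 were thus near the value of a few reads in SH, intermediate in HSB and AB, and highest in LSB, and the sizes given rest in part on the low SH levels. For nlrc11 the difference was 1.73 to HSB, 1.34 to AB and 6.56 to SH.

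A second run held changes in both directions. The gene si:rp71-36a1.1 was higher in LSB, at 10.9, 8.73, 9.42 and 9.73 CPM against 0.272 to 2.39 CPM (2.68 ± 0.24). Its neighbour si:rp71-36a1.2 was lower, at 2.56 to 3.30 CPM against 3.62 to 10.5 (-0.80 ± 0.09). The next gene, si:rp71-36a1.3, was lower by more, at 0.446 to 0.762 CPM against 1.23 to 12.5 CPM (-2.32 ± 0.17). No function is annotated for these 3 genes. Their sequences were not compared, and whether reads were divided between them was not tested. A pair, si:dkey-21e2.10 and si:dkey-21e2.13, averaged 4.39 and 3.99 CPM in LSB against 1.55 and 1.43 CPM in the others (1.39 ± 0.15 and 1.27 ± 0.14). The 3 copies of ggact, which encode gamma-glutamylamine cyclotransferase and were chosen after their values were seen, were all higher in LSB, with means of 6.24, 12.6 and 8.89 CPM for copies 1, 2 and 3 against 4.09, 4.78 and 5.33 CPM. Their differences were 0.55 ± 0.09, 1.38 ± 0.12 and 0.69 ± 0.12.

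**Figure D3:**
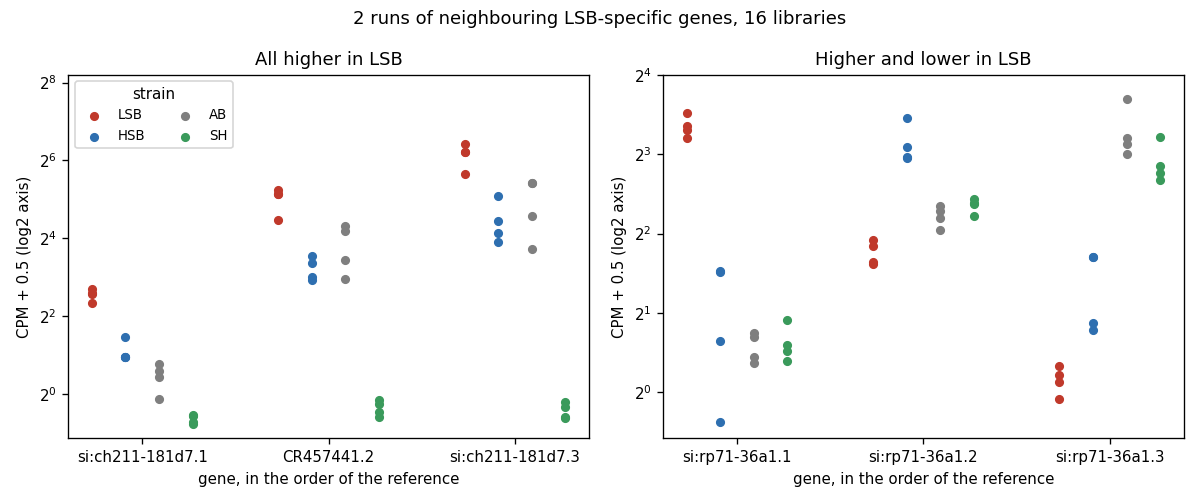
CPM + 0.5 on a log2 axis for 2 runs of neighbouring LSB-specific genes in reference order, 1 point per library (LSB red, HSB blue, AB grey, SH green). On the left all 3 genes are higher in LSB and nearly without reads in SH, and on the right si:rp71-36a1.1 is higher in LSB and the 2 genes after it are lower.

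Several large differences were shared out between copies of a gene. Of the 848 LSB-specific genes, 94 (11.1%) share their symbol with another gene of the table, against 9.52% of all genes. When the CPM of such copies were added up, a step chosen after the data were seen, 46 of the 94 kept their place outside the range of the other strains and 48 did not. Of the 13 that differed at least 2-fold, 3 stayed outside the range, with summed differences of 1.36 (CU929133.1), 0.41 (PHYH (2 of 2)) and -0.33 (me2). The clearest case was cox5aa, a subunit of cytochrome c oxidase. Its copy ENSDARG00000088383 was at 13.5, 12.6, 10.9 and 12.7 CPM in LSB, against 0.286 to 5.41 CPM in the others (2.80 ± 0.12), while copy ENSDARG00000017906 was at 10.6, 13.4, 13.5 and 6.13 CPM against 15.7 to 26.2 CPM (-0.99 ± 0.14). Together they held 23.3 CPM in LSB and 23.7 CPM in the others, a difference of -0.03, so cox5aa as a whole was not shown to differ. The 2 copies of rab14, a vesicle transport gene chosen after its values were seen, also differed in direction (0.94 and -0.35), with 87.9 CPM in LSB and 87.4 CPM in the others for their sum.

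The same sum removed or turned round other low values. MRPL53 (2 of 2), a mitochondrial ribosomal protein, was at 0.0428, 0.0371, 0 and 0.589 CPM in LSB against 1.03 to 4.77 CPM (-2.41 ± 0.18), but its copies together held 6.44 CPM in LSB and 5.85 CPM in the others. MRPS12 (2 of 2), another such protein, was at 0.379 to 1.37 CPM in LSB against 1.43 to 4.34 CPM in the others (-1.40 ± 0.16), and with its copy it averaged 13.9 CPM in LSB and 11.7 CPM in the others. The transaminase gene ccbl2, whose product makes kynurenic acid in mammals, was at 0.623 to 0.8997 CPM in LSB against 1.06 to 5.98 CPM (-1.54 ± 0.17), and with its copy it averaged 8.03 CPM in LSB and 7.98 CPM in the others. For PLA2G4C the sum over 3 copies was 63.2 CPM in LSB and 35.2 CPM in the others, and the libraries of LSB and the other strains then overlapped (55.0 to 74.2 against 16.8 to 69.1 CPM). Other differences held over the copies. The 3 copies of PDE2A, a cyclic nucleotide phosphodiesterase chosen here after its values were seen, were all lower in LSB and together reached 23.2 CPM in LSB and 42.4 CPM in the others (-0.92 for the sum). CU929133.1, which the reference table names as a selenoprotein L gene and which was likewise chosen afterwards, was at 44.01 to 50.02 CPM in LSB against 1.36 to 32.9 CPM, and with its copy it averaged 52.5 CPM in LSB and 25.9 CPM in the others. Its mean was 28.3 CPM in HSB, 1.60 in AB and 27.4 in SH, so that its difference of 1.98 ± 0.09 was made up of 0.70 to HSB, 4.48 to AB and 0.75 to SH.

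Among LSB-specific genes with a difference of at least 0.5, the 5 with the most reads on the higher side were the metal-binding protein gene mt2, the amyloid precursor-like gene aplp2, the globins hbaa1 and ba1, and the proton pump subunit gene atpv0e2. mt2, a metallothionein, was at 614, 692, 608 and 621 CPM in LSB against 286 to 449 CPM in the others (0.77 ± 0.09). aplp2 was at 527, 549, 527 and 549 CPM against 281 to 460 CPM (0.65 ± 0.07). atpv0e2 was at 288 to 394 CPM against 219 to 260 CPM (0.52 ± 0.06). The mean in LSB was 1.69-fold that in the others for mt2, 1.56-fold for aplp2 and 1.44-fold for atpv0e2, and aplp2 was the most even over the 4 LSB pools. The globin genes varied more within LSB. hbaa1 was at 1614, 1982, 1280 and 1380 CPM against 835 to 1237 CPM (0.60 ± 0.10), and its reference neighbour ba1 at 1412, 1738, 1165 and 1175 CPM against 709 to 1056 CPM (0.65 ± 0.10). Whole brains were not stated to be free of blood. The blood list holds hbaa1 but not ba1, whose symbol its pattern does not match. In the limma test described below, 4 of its 9 genes rose and 0 fell (44.4% higher against 13.1% of all genes). The counts were 2 and 0 when either LSB female pool was left out. The summed level of the 9 genes was 2244, 2576, 1805 and 1874 CPM in LSB against 1308 to 1773 CPM in the others. The part of blood in other differences was not tested.

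On the lower side the genes with the most reads were cp, vdac3, rbp4, lypla2 and sdcbp. cp encodes ceruloplasmin, a copper-carrying ferroxidase, and was at 450, 433, 508 and 572 CPM in LSB against 649 to 940 CPM in the others (-0.72 ± 0.07). vdac3, a channel of the outer mitochondrial membrane, was at 143, 280, 251 and 173 CPM against 301 to 389 CPM (-0.78 ± 0.12). The retinol carrier gene rbp4 was at 178 to 205 CPM against 233 to 394 CPM (-0.62 ± 0.09). lypla2, whose product removes palmitate from proteins, was at 183 to 208 CPM against 237 to 351 CPM (-0.55 ± 0.05), and sdcbp, the scaffold protein syntenin, at 127 to 152 CPM against 175 to 226 CPM (-0.53 ± 0.05). vdac3 spread the widest among the LSB pools, and rbp4 and lypla2 were nearest to LSB in HSB, with means of 276 and 255 CPM.

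To describe pathways, lists of genes were read against limma calls over all genes. With 1 mean per strain and a Benjamini-Hochberg adjusted p under 0.05, 1999 genes (13.1%) rose in LSB and 3577 (23.4%) fell, out of 15304. The counts in the lists below are to be read against these shares. Calls over all genes also moved when libraries or a strain were left out. They were 1440 higher and 2738 lower without LSB female pool 1, and 1538 and 2490 without female pool 2. Without LSB male pool 2 they were 2120 and 4066, and without SH 1320 and 1778. List counts under those settings are to be read against these numbers. Rescaled by median ratios, the numbers were 2646 and 2766, a share of higher calls of 48.9% against 35.9%. Against single strains the calls were 1411 (9.22%) and 1776 (11.6%) for HSB, 1579 (10.3%) and 2185 (14.3%) for AB, and 2437 (15.9%) and 4907 (32.1%) for SH. All 3 strains at once gave 417 (2.72%) and 692 (4.52%). These comparisons share the 4 LSB libraries.

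Ribosomal proteins rose together in LSB. Of 63 cytosolic ribosomal protein genes, 61 rose and 0 fell, with a median difference of 0.34 against -0.04 over all genes, and all 63 had a positive difference. The count was 61 after rescaling, and 57 to 62 when any library was left out. Against AB alone 40 rose, against HSB alone 45 and against SH alone 63. Of the list, 5 were LSB-specific (7.94%, against 5.54% of all genes). Among them were rpl28 at 292 to 379 CPM in LSB against 211 to 279 CPM in the others (0.41 ± 0.06) and rpl21 at 325 to 413 CPM against 251 to 317 CPM (0.31 ± 0.05). The summed level of the list was 33193, 34650, 29081 and 26179 CPM in LSB against 19753 to 27820 CPM in the others. LSB male pool 2 thus lay within the range of the other strains, below 1 HSB and 1 AB library.

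Genes of the mitochondrial respiratory chain leaned the same way with less regularity. Of 88 oxidative phosphorylation genes, 29 rose and 6 fell (median 0.14), or 42 and 4 after rescaling and 14 and 3 against HSB alone. Without LSB female pool 2 it was 18 and 8, and without male pool 2 it was 59 and 4, so the count turned on single LSB libraries. The summed level was 14331, 16572, 14272 and 12688 CPM in LSB against 12456 to 14445 CPM, which overlapped. LSB-specific members included sdhda, an anchor subunit of succinate dehydrogenase, at 47.4 to 55.3 CPM against 15.1 to 45.4 CPM (0.75 ± 0.08), NDUFB1 of complex I at 46.5 to 61.1 CPM against 33.7 to 45.4 CPM (0.51 ± 0.07), and ATP5J (2 of 2) of the ATP synthase at 7.20 to 8.23 CPM against 1.36 to 5.96 CPM (1.20 ± 0.16). ATP5J (2 of 2) summed with its copy averaged 248 CPM in LSB and 220 CPM in the others, a difference of 0.17, and was then no longer outside the range (213 to 283 against 203 to 247 CPM). Much of the difference in sdhda lay in SH, with a mean of 18.2 CPM, against 39.7 in HSB and 39.8 in AB. Among 69 mitochondrial ribosomal protein genes 20 rose and 3 fell (median 0.08), which was 9 and 4 without LSB female pool 2, 12 higher without female pool 1, 32 higher without male pool 2 and 13 higher without SH. Of 49 proteasome genes 14 rose and 2 fell. The higher count was 24 without LSB male pool 2, 7 without SH and 4 against HSB alone. The regulatory subunit gene psmd9 was LSB-specific at 19.98 to 24.99 CPM against 14.7 to 17.7 CPM (0.41 ± 0.06), and the assembly chaperone gene psmg2 at 25.7 to 31.0 CPM against 20.2 to 25.02 CPM (0.29 ± 0.05).

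**Figure D4:**
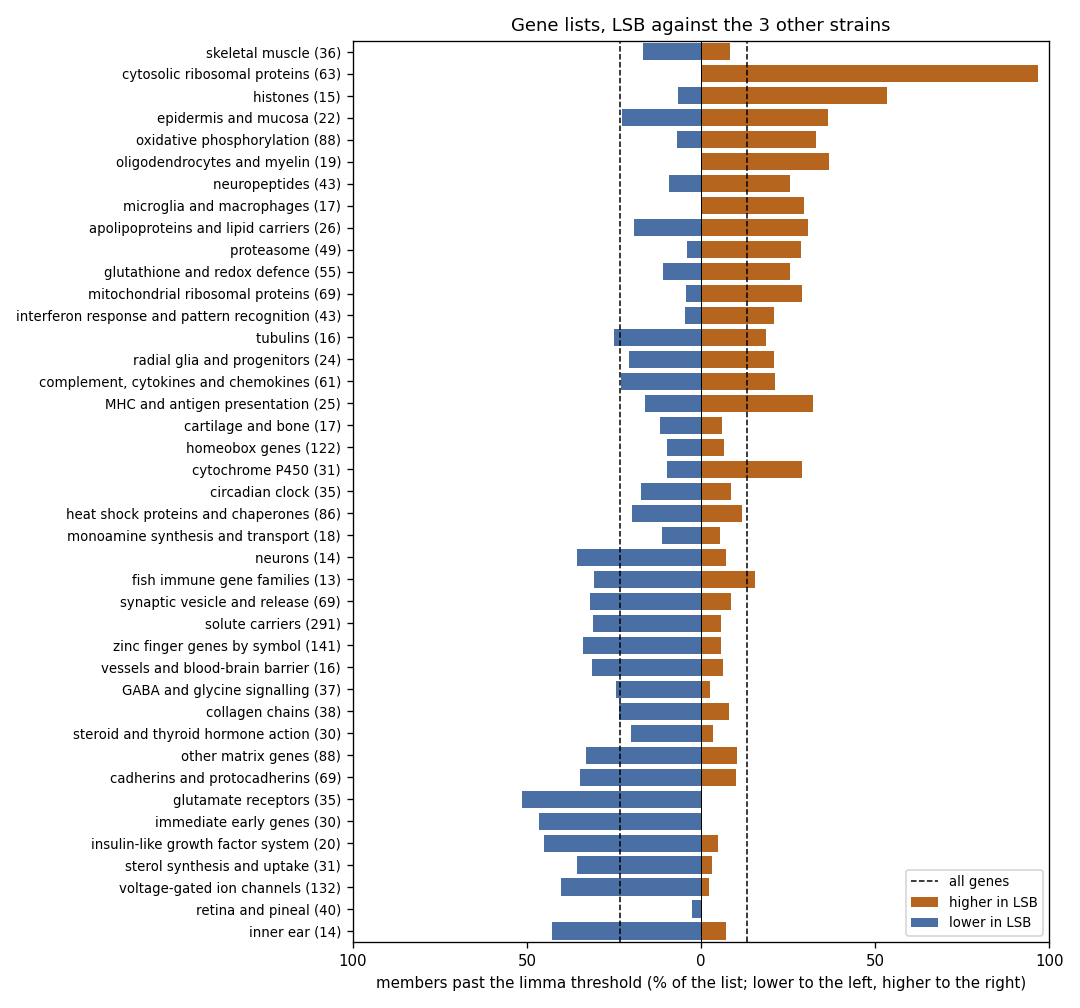
Share of the genes of each list shown that passed the limma test with LSB higher (orange, to the right) or lower (blue, to the left), with the number of genes in parentheses and the lists in order of their median difference. The smallest lists (blood, ovary and egg, pituitary and crystallins) are not shown. Dashed lines mark the shares over all genes, 13.1% higher and 23.4% lower. The cytosolic ribosomal proteins reach furthest to the right and the glutamate receptors furthest to the left.

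Genes of electrical and synaptic signalling fell in LSB more often than they rose, as did genes of the table as a whole (23.4% against 13.1%). Of 132 voltage-gated ion channel genes, 3 rose and 53 fell (40.2% lower against 23.4% of all genes), with a median difference of -0.19. After rescaling, 5 rose and 47 fell. Against AB alone 26 fell, against HSB alone 24 and against SH alone 68, and without SH 26 fell. Of the list, 6 were LSB-specific (4.55%, against 5.54% of all genes), all of them lower. They included kcnc4, a potassium channel, at 28.4, 27.1, 33.9 and 32.9 CPM in LSB against 36.3 to 46.8 CPM in the others (-0.40 ± 0.07). KCNA4, an A-type channel, was at 7.32 to 13.5 CPM against 14.3 to 18.1 CPM (-0.49 ± 0.11), and KCNJ2 (1 of 2), an inward rectifier, at 2.93 to 3.79 CPM against 3.91 to 7.64 CPM (-0.60 ± 0.09). The sodium channel beta subunit gene scn4bb was at 10.8 to 14.8 CPM against 14.9 to 20.4 CPM (-0.37 ± 0.08). LSB female pool 2 was the lowest library for each of these 4 genes. The summed level of the list was 5534, 4847, 5949 and 6027 CPM in LSB against 5806 to 6701 CPM, so both male LSB pools lay within the range of the others.

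Of 35 glutamate receptor genes, 0 rose and 18 fell (51.4% lower, median -0.14), and 15 fell after rescaling. Against AB alone 6 fell, against HSB alone 7 and against SH alone 21, and without SH 6 fell. Leaving out any library gave 12 to 22. GRIK2, a kainate receptor subunit, was at 13.6, 11.5, 15.7 and 17.0 CPM in LSB against 21.3 to 26.2 CPM (-0.74 ± 0.08), and its means in HSB, AB and SH were close together at 25.1, 23.5 and 24.3 CPM. GRM8 (1 of 2), a presynaptic metabotropic receptor, was at 58.1 to 67.7 CPM against 71.02 to 83.9 CPM (-0.25 ± 0.04). Among 37 genes of GABA and glycine signalling 1 rose and 9 fell (24.3% lower, near the 23.4% of all genes). The lower count was 5 without LSB female pool 2, 15 without male pool 2 and 5 without SH. The gene that rose, gabrd, encodes the delta subunit of extrasynaptic GABA-A receptors and was LSB-specific at 792, 776, 755 and 840 CPM against 610 to 736 CPM (0.23 ± 0.03). Of 69 genes of synaptic vesicles and release 6 rose and 22 fell (31.9% lower). The lower count was 14 when either LSB female pool was left out and 8 without SH. The vesicular glutamate transporters slc17a6b (325 to 340 against 387 to 481 CPM, -0.37 ± 0.04) and slc17a8 (1.71 to 2.36 against 2.43 to 3.54 CPM, -0.49 ± 0.09) and the complexin gene CPLX1 (1 of 2) (1653 to 1844 against 1872 to 2428 CPM, -0.28 ± 0.04) were LSB-specific. Neuronal markers as a group gave 1 higher and 5 lower of 14 genes, and their part in these counts was not tested.

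**Figure D5:**
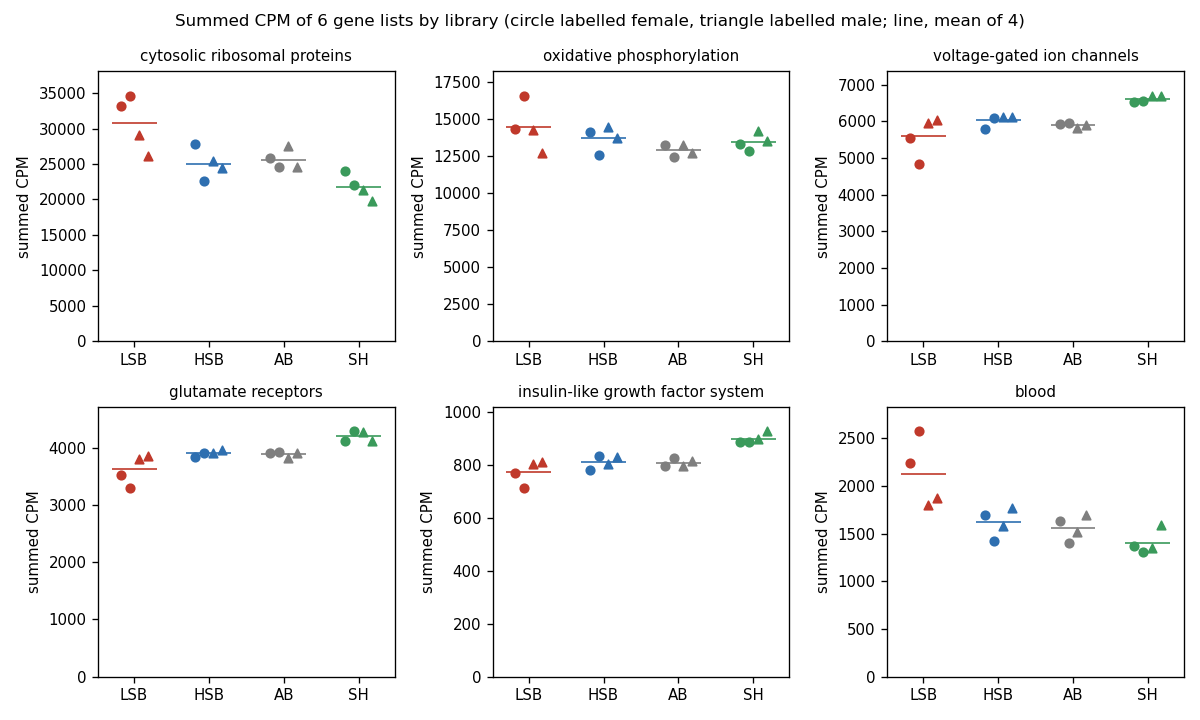
Summed CPM of 6 gene lists in each of 16 libraries (circles labelled female, triangles labelled male, lines the mean of the 4 libraries of a strain). The LSB libraries lie above all others only for the blood list (which lacks ba1), 1805 to 2576 against 1308 to 1773 CPM, and in the other panels at least 1 LSB library overlaps the other strains.

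Peptide and activity-related genes were read next. Of 43 neuropeptide genes 11 rose and 4 fell (median 0.10), and 7 rose without LSB female pool 2 or without AB. Against SH alone 7 rose and 9 fell, and without HSB 9 rose and 7 fell. Of the 43, 2 were LSB-specific (4.65%, against 5.54% of all genes). The relaxin gene rln3a, expressed in the nucleus incertus of vertebrates, was at 59.6, 79.7, 63.2 and 60.7 CPM in LSB against 41.5 to 52.2 CPM (0.49 ± 0.07), and the tachykinin gene tac3a at 22.6 to 25.6 CPM against 17.7 to 22.1 CPM (0.29 ± 0.05). The largest decrease in the list, looked up after the counts, was that of oxt, the fish counterpart of the oxytocin gene. It was at 130, 150, 168 and 135 CPM in LSB against a range of 167 to 460 CPM with a median of 191 in the others (-0.66 ± 0.10, limma adjusted p = 8.2e-05), so the ranges touched. Of 30 immediate early genes, which are induced by neuronal activity, 0 rose and 14 fell (median -0.16). Against SH alone 20 fell, against AB alone 2 and against HSB alone 7, where 32.1%, 14.3% and 11.6% of all genes fell. Without SH 5 fell, and the lower calls over all genes went from 3577 to 1778. The largest decrease was that of fosb, likewise looked up afterwards, at 11.6 to 15.9 CPM against 13.9 to 37.3 CPM (-0.61 ± 0.11, adjusted p = 0.00077), and without SH its limma adjusted p was 0.084.

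Of 20 genes of the insulin-like growth factor system, 1 rose and 9 fell (45% lower against 23.4% of all genes). Their median was -0.16, and without SH 4 fell. The receptor gene igf1rb was LSB-specific at 15.9, 11.4, 16.4 and 18.7 CPM against 18.7 to 25.5 CPM (-0.46 ± 0.09), as was the binding protein gene igfbp5a at 28.0 to 31.7 CPM against 33.3 to 40.8 CPM (-0.30 ± 0.05). The ligand igf1 itself did not pass the test (-0.32 ± 0.27). Of 31 genes of sterol synthesis and uptake, 1 rose and 11 fell (35.5% lower), and 7 fell without LSB female pool 2 or without SH. Of 291 solute carriers, 17 rose and 90 fell (5.84% and 30.9%), or 36 and 72 after rescaling and 19 and 50 without SH. In this list 22 were LSB-specific and lower and 2 were higher, together 8.25% against 5.54% of all genes. The nucleoside transporter gene slc29a1 was at 26.1 to 29.1 CPM in LSB against 42.9 to 54.1 CPM (-0.80 ± 0.05). The amino acid transporter gene slc38a7 was at 16.1 to 24.7 CPM against 30.1 to 36.4 CPM (-0.74 ± 0.08), and the organic cation transporter gene slc22a2 was higher, at 32.6 to 36.8 CPM against 22.96 to 30.4 CPM (0.33 ± 0.05).

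Glial, vascular and progenitor genes were read in 4 lists. Of 19 oligodendrocyte and myelin genes 7 rose and 0 fell (36.8% higher against 13.1% of all genes), and 2 rose without SH. Against AB alone 0 rose and 1 fell. None was LSB-specific. Of 17 microglia and macrophage genes 5 rose and 0 fell (29.4% higher), or 3 and 3 against HSB alone and 8 and 0 without HSB. Their summed level was 550 to 624 CPM in LSB, against 568 to 653 CPM in HSB, 449 to 490 CPM in AB and 408 to 449 CPM in SH, so LSB overlapped HSB and lay above AB and SH. In this list the lysosomal growth factor gene grnb was LSB-specific at 26.5 to 28.3 CPM against 22.0 to 26.3 CPM (0.21 ± 0.04). Of 16 vessel genes 1 rose and 5 fell (31.25% lower against 23.4% of all genes). The lower count was 3 after rescaling, and also 3 when LSB female pool 1 or 2, HSB male pool 1 or SH male pool 1 was left out. The endothelial receptor gene tek was LSB-specific at 8.14, 9.32, 8.70 and 9.45 CPM against 10.8 to 14.7 CPM (-0.48 ± 0.07). The summed vessel level was 579 to 613 CPM in LSB against 618 to 670 CPM. Among 24 genes of radial glia and progenitors 5 rose and 5 fell (20.8% each). The intermediate filament gene nes was lower at 16.2 to 21.1 CPM against 22.6 to 33.9 CPM (-0.52 ± 0.06). Homeobox genes gave 8 higher and 12 lower of 122 (6.56% and 9.84%, both below the shares of all genes). The counts turned to 12 and 8 after rescaling, to 7 and 4 without SH and to 4 and 4 without LSB female pool 2. The developmental regulators tlx3b (15.6 to 18.1 against 10.8 to 15.4 CPM, 0.31 ± 0.07) and lhx5 (21.5 to 23.6 against 18.2 to 21.5 CPM, 0.18 ± 0.05) were LSB-specific and higher.

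Among stress, redox and immune genes the lists moved in both directions, as did the table as a whole (13.1% higher and 23.4% lower). Of 55 glutathione and redox genes 14 rose and 6 fell (25.5% and 10.9%), with 9 higher without LSB female pool 2 and 7 without SH. The peroxidase gene gpx1b was at 9.17 to 10.1 CPM in LSB against 4.87 to 6.90 CPM (0.74 ± 0.08), while the quinone reductase gene nqo1 was lower at 11.5 to 14.7 CPM against 14.9 to 20.4 CPM (-0.41 ± 0.06). Of 86 heat shock and chaperone genes 10 rose and 17 fell (11.6% and 19.8%, both below the shares of all genes). The balance was 10 and 8 without SH, 13 and 14 after rescaling and 6 and 16 without LSB female pool 2. The small heat shock genes hspb7 (5.68 to 7.34 against 8.66 to 13.7 CPM, -0.82 ± 0.09) and hspb6 (11.7 to 12.4 against 14.9 to 24.3 CPM, -0.61 ± 0.08) were lower, and the co-chaperone gene dnajc5gb was higher (9.64 to 13.3 against 4.29 to 9.54 CPM, 0.80 ± 0.08). Of 31 cytochrome P450 genes 9 rose and 3 fell (29.0% and 9.68%). Among them cyp46a4, a cholesterol hydroxylase family member, was at 4.99 to 6.72 CPM against 1.73 to 4.67 CPM (0.98 ± 0.13), and cyp2k16 at 2.49 to 3.68 CPM against 0.593 to 2.34 CPM (1.12 ± 0.13). Of 61 complement, cytokine and chemokine genes 13 rose and 14 fell: il21r was higher in LSB at 4.94 to 7.93 CPM against 2.99 to 4.87 CPM (0.66 ± 0.12), and complement factor I (CFI) was lower at 21.2 to 24.96 CPM against 25.01 to 41.3 CPM (-0.43 ± 0.07). Interferon and pattern recognition genes gave 9 higher and 2 lower of 43, or 5 higher if LSB female pool 1 was left out and 4 if LSB male pool 1 was, and 2 and 2 against HSB alone. MHC and antigen presentation genes gave 8 and 4 of 25 (32% and 16%), or 5 and 6 against HSB alone, and their median changed sign between settings.

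The lists that remain mostly had more lower than higher genes, as did the table as a whole (23.4% lower and 13.1% higher). Of 141 zinc finger genes 8 rose and 48 fell (34.0% lower). Of 69 cadherins and protocadherins it was 7 and 24 (34.8% lower), and of 88 matrix genes other than collagens 9 and 29 (33.0% lower). These 3 lists had 28, 14 and 19 lower genes without LSB female pool 2, and 20, 9 and 19 without SH. The zinc finger gene ZNF512B was LSB-specific and lower (-0.71 ± 0.14), the protocadherin gene PCDH8 was lower (-0.34 ± 0.06), and the cadherin gene CDH19, known from glia, was higher (0.37 ± 0.07). The thrombospondins thbs4a and thbs4b, matrix proteins with a role in synapse formation, were both lower (-0.44 ± 0.09 and -0.53 ± 0.08). Of 15 histone genes 8 rose and 1 fell, with 4 higher without LSB female pool 1 or without SH and 5 without female pool 2. The replacement histone h3f3d, in 1 of its 2 copies, was at 227 to 249 CPM in LSB against 174 to 224 CPM in the others (0.27 ± 0.04). Its other copy averaged 232 CPM in LSB and 220 CPM in the others (0.08) and was not LSB-specific. Summed, the copies differed by 0.17 and stayed outside the range (460 to 478 against 368 to 455 CPM). Collagen chains gave 3 higher and 9 lower of 38 (23.7% lower). Apolipoproteins and lipid carriers gave 8 and 5 of 26 (30.8% and 19.2%). Tubulins gave 3 and 4 of 16 (18.75% and 25%), or 5 and 2 after rescaling. Among the tubulins, tubb5 was LSB-specific at 478 to 564 CPM against 340 to 474 CPM (0.33 ± 0.05). Circadian clock genes gave 3 and 6 of 35 (17.1% lower), a balance that turned to 4 and 3 after rescaling, and to 2 and 2 without LSB female pool 2. Genes of steroid and thyroid hormone action gave 1 and 6 of 30 (20% lower). Fish immune gene families gave 2 and 4 of 13 (30.8% lower), and monoamine synthesis and transport 1 and 2 of 18 (11.1% lower).

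Markers of tissues next to the brain were checked in the same way. Of 36 skeletal muscle genes 3 rose and 6 fell (8.33% and 16.7%), with 18 higher without AB male pool 2. Their summed level was 1023 to 1469 CPM in LSB against 958 to 4186 CPM in the others. AB male pool 2 alone set that upper bound, and the next highest of the others was SH male pool 1 at 1224 CPM. LSB female pools 1 and 2 (1469 and 1448 CPM) and male pool 2 (1274 CPM) lay above SH male pool 1, and LSB male pool 1 lay below it. Retinal and pineal genes gave 0 higher and 1 lower of 40 (2.5% lower), and inner ear genes 1 and 6 of 14 (42.9% lower). Genes of epidermis and mucosa gave 8 and 5 of 22 (36.4% and 22.7%), or 4 and 1 without LSB female pool 2. Cartilage and bone genes gave 1 and 2 of 17 (5.88% and 11.8%). The 3 genes of ovary and egg and the 2 of the pituitary gave no call, and 1 of 2 crystallins rose. The inner ear list held slc17a8 and the motor protein gene myo7aa, which was LSB-specific at 2.53 to 3.95 CPM against 4.08 to 6.89 CPM (-0.49 ± 0.09). The part of these tissues in the differences was not tested.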

How the data were processed

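RNA of whole brains, pooled from 10 fish per library, was sequenced by the authors as single-end reads on an Illumina Genome Analyzer. Per the methods and the submitters' processing notes, bases were called with CASAVA 1.7, reads were mapped to Zv9 with GSNAP and counted on protein-coding genes with HTSeq (union mode), and edgeR served for the authors' own tests. The deposited values, made by the authors, are CPM, the counts of each gene scaled to the library total: each library sums to 1000000 over 15304 genes. Every gene exceeded 1 CPM in at least 4 libraries, and the filter behind this is not given in the sources used here. Read totals were estimated from the steps between CPM values. Whether counting used strand is also not given, so overlapping genes and near-identical copies are uncertain. CPM are not divided by gene length, so levels were not compared between genes.

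Here CPM were taken as log2(CPM + 0.5), with females and males together. LSB-specific genes were those with all 4 LSB libraries above, or below, the 12 others, and since the choice uses the same contrast as the fold changes, these are descriptions without a test. limma 3.58.1 (R 4.3.3) was fitted to all genes with 1 mean per strain and the contrast LSB minus the mean of HSB, AB and SH. A trended prior and Benjamini-Hochberg adjustment were used. The fit was also run on simulated data, in which HSB, AB and SH did not differ and all libraries had the same dispersion. These data differ on both points, so that run is no check on the calls given here. CPM are not counts, so no count model was used. Named genes were the 12 largest differences in each direction, the 5 with the most reads in each direction among differences of at least 0.5, LSB-specific members of gene lists (up to 4 per direction), the 2 genes nearest the border on each side and direction, neighbours of at least 2-fold change, and dio2, igf1, cyp19a1b and hsd17b3. Genes outside this rule were chosen after their values were seen, as is said where most are named; oxt and fosb come from a rule of the 3 largest calls per list and direction, also set afterwards, and mbpa and snap25b are tissue markers. Some genes that the rule names are not reported here. Members and lists were chosen with earlier results of these data known, and symbols that a list's pattern caught wrongly were removed after values were seen. Gene names and gene order came from the RefSeq table of assembly GRCz12tu, used without coordinates (13371 genes matched, 87.4%). Alternatives were another constant (0.1 or 1), a minimum mean of 1 CPM, median-ratio scaling, a sex term, a replicate block, no strain terms, strain means as the samples, single libraries, strains or both LSB pools numbered 2 left out, and, chosen after the data were seen, summed copies.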

Additional observations from a re-analysis of the deposited data

Results flagged for a closer look

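Among the 116 named genes, the 4 LSB libraries were searched for a single value far from the other 3 (the gap to its neighbour as a share of their range, read against Dixon's limit for 4 samples), which chance gives in about 1 of 20 groups. It was found for 12 genes. LSB female pool 2 was low for plxna1 (11.7 CPM, against 17.6, 17.5 and 17.0), myo7aa (2.53, against 3.68, 3.70 and 3.95), nes (16.2, against 20.6, 21.1 and 20.8) and CR457441.2 (21.6, against 34.8, 34.8 and 37.5), and high for mt2 (692, against 614, 608 and 621). LSB male pool 2 was low for ccbl2 (0.623 CPM), cyp2k16 (2.49) and METTL15 (5.13), and high for MRPL53 (2 of 2) (0.589, against at most 0.0428). LSB female pool 1 was high for slc22a2 (36.8 CPM) and tnni1b (8.61), and LSB male pool 1 for gpx1b (10.1). The 4 LSB libraries of each gene other than plxna1 lay outside the range of HSB, AB and SH. This follows from the rule by which these genes were named and is no check on the outlying values.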

How the results depend on the processing

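The number of LSB-specific genes (313 higher, 535 lower) grew when fewer libraries had to agree. It was 744 and 1116 without both LSB pools numbered 2, 647 and 1151 without HSB, 651 and 1019 without AB, and 510 higher without SH. Leaving out any single library gave 320 to 571 higher and 547 to 967 lower genes, with the most without LSB male pool 2. The limma calls (1999 higher, 3577 lower) were 934 and 1737 without strain terms, 1320 and 1778 without SH, and 1368 and 2299 without both LSB pools numbered 2. Single libraries left out gave 1440 to 2120 and 2490 to 4066. With strain means as the samples, 1 against 3, limma gave 0 higher and 0 lower at the adjusted threshold and 1001 genes at an unadjusted p under 0.05, so the calls rest on the spread between pools. Constants of 0.1 and 1 could not change the LSB-specific genes, because the range rule uses only the order of values. With the minimum of 1 CPM they were also 313 and 535. The same settings moved the limma calls by less than 1.5 times. For the limma calls, a sex term and summed copies (chosen after the data were seen) also moved the counts by less than 1.5 times. A replicate block gave 2041 higher and 3611 lower calls. The numbers do not pair the pools: correlations of same-numbered pools ran from -0.22 to 0.31 over 28 pairs, with a median of 0.02.

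Of the 3364 values of the 116 named genes under these alternatives, 3223 kept direction and side of the threshold. A further 134 lost the threshold, 22 of them outside the strain means, 2 gained it and 5 changed direction. Most named genes were chosen by the range rule on these same libraries. All 313 higher and 535 lower genes of that rule passed limma. This stability is thus largely built in and is not an independent check. cyp19a1b stood at 0.10 without SH. With copies summed, ccbl2 stood at 0.034, MRPL53 (2 of 2) at 0.11, cox5aa (ENSDARG00000088383) at -0.027 and MRPS12 (2 of 2) at 0.24 on the log2 scale. The shared cause in the last 4 is the sum itself, in which the other copy offset the listed one.

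LSB is 1 line, sampled as 4 pools whose sex labels are partly in doubt. For genes near 1 read per library (0.0280 to 0.0544 CPM) absence cannot be told apart from low depth.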
